A study of Mus musculus with 4 samples.

Results

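The cells compared here were the deeply sequenced testicular cells of the mice given busulfan plus alginate oligosaccharides (BA10) and of the vehicle controls (A0). They were chosen by a measured value, the number of UMIs per cell, and 11679 of the 27060 cells of the series entered the comparison: all 3778 cells of BA10 and 7901 of the 8941 cells of A0. A UMI (unique molecular identifier) marks 1 captured mRNA molecule. The lower limit was 9013 UMIs, the smallest total of any BA10 cell. In A0 the nearest cells on either side of it held 9014 and 9012 UMIs. The 1040 A0 cells under the limit had a median of 8399 UMIs, and no BA10 cell lay under it. Because the limit was taken from BA10, the depth of the cells is no result.

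The study sequenced 4 groups of ICR mice, an outbred stock, each as 1 10x Genomics 3' library made from the digested tubules of several pooled testes. All were 3-week-old males at the start. A0 received water by gavage, A10 received alginate oligosaccharides (AOS, short chains cut from a seaweed polysaccharide) at 10 mg/kg body weight, B0 received a single injection of busulfan, an alkylating agent toxic to dividing germ cells, and then water, and BA10 received the busulfan injection and then daily AOS at 10 mg/kg. BA10 therefore differed from A0 in both agents, and their parts in a difference cannot be told apart. With 1 library per group there is no replicate error. Every interval given is a 95% interval for counting error only, and no p-value can be given.

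Spermatogenesis proceeds from spermatogonia, which divide by mitosis, through primary spermatocytes to the meiotic divisions and haploid spermatids. Primary spermatocytes spend a long pachytene stage with their chromosomes paired. Round spermatids build the acrosome, the enzyme-filled cap that meets the egg. Condensing spermatids assemble the tail and replace histones first with transition proteins (Tnp1, Tnp2) and then with protamines (Prm1, Prm2). Leydig cells between the tubules make testosterone, and Sertoli cells within the tubules nurse the germ cells.

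The deep cells held 142099074 UMIs in A0 and 91304225 UMIs in BA10, with a median of 13589 UMIs and 3452 genes per cell in A0 and of 17989 UMIs and 4105 genes in BA10. Thinned to 9013 UMIs each, the cells showed a median of 2941 genes in A0 and 2906 in BA10. A0 and BA10 shared 44 cell barcodes among the deep cells. The other libraries held 6691 deep cells of 9682 (A10) and only 448 of 4659 (B0), so B0 values below describe only its deepest cells and are given for orientation. The testis was the labelled tissue, and its germ cell marker Ldhc, the testis form of lactate dehydrogenase, had a UMI after thinning in all 7901 A0 cells and all 3778 BA10 cells, Leydig-led cells included, so that its presence does not sort cells.

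Condensing spermatid mRNA was far less abundant in BA10 than in A0. Pooled over the deep cells, Prm2 stood at 14379 CPM (UMIs scaled to a library total of 1000000) in A0, 14219 CPM in A10, 41.0 CPM in B0 and 316 CPM in BA10. A0 was thus 45.4-fold above BA10 (44.9 to 46.0), with A10 close to A0 and B0 on the side of BA10. Prm1 gave 11377, 14688, 64.9 and 360 CPM in the same order, 31.6 times as much in A0 as in BA10 (31.3 to 32.0). For Tnp2 the levels were 6979, 7120, 45.8 and 179 CPM, and for Tnp1 they were 4403, 5256, 179 and 159 CPM. All 18 genes of the condensing spermatid list were lower in BA10 by 2-fold or more, with log2 ratios from -5.62 to -1.97 and a median of -4.51. Of all genes detected in at least 5% of the deep cells of either library, 18.4% were lower. The log2 ratios here and below are of pooled CPM plus 1. The summed level of the list was 50982 CPM in A0 and 2263 CPM in BA10, 22.5-fold lower (22.4 to 22.6).

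The genes for Tnp2, Prm3, Prm2 and Prm1 lie side by side on the minus strand of chromosome 16, in a stretch of 17.9 kb from position 10787936 to 10805839 (GRCm38, GENCODE). The promoters of Prm2, which had the fourth largest fall of all genes, and of its neighbour Prm3 are shown with that of Insl3, the gene with the largest excess in BA10. The sequences are from RefSeq (GRCm38.p6), each from 250 bases before to 50 after the annotated start. Capitals mark the letters AAGGTCA, a half-site of the steroidogenic factor SF-1, TGAGGTCA, a variant of the cAMP response element, or CCAAT, the core of the CCAAT box. The consensus cAMP response element, TGACGTCA, was searched too, all on both strands. The motifs can share letters, as AAGGTCA and TGAGGTCA do in GGTCA.
Prm2, chr16:10792056-10792355, minus strand: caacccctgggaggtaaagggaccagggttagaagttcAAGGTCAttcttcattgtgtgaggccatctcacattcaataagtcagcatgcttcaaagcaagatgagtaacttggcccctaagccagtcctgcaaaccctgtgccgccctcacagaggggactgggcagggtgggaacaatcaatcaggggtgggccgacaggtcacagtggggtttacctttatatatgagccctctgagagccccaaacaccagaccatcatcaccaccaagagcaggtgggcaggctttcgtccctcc
Prm3, chr16:10790865-10791164, minus strand: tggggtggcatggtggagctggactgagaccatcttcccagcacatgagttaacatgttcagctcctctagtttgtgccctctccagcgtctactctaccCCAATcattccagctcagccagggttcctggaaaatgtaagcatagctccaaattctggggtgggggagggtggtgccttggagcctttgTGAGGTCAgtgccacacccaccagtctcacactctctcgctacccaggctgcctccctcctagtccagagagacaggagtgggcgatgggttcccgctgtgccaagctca
Insl3, chr8:71689002-71689301, plus strand: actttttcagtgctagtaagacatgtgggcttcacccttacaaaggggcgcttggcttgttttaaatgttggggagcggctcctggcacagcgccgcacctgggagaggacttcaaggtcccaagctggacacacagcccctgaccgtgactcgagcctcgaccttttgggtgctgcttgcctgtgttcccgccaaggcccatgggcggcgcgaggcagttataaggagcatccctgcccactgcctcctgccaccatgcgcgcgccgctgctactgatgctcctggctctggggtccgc
In Prm3 the TGAGGTCA letters began 60 bases before the start (position -60), and in Prm2 the AAGGTCA letters began at -212. The window of Insl3 held none of the 4 motifs. Nor did the windows that are not shown, those of Prm1 and Tnp2 in the same cluster and of Tnp1, Smcp, Tssk6 and Lcn2. Only exact letters were searched. Close variants of TGACGTCA, such as TGACTTCA in the Prm1 window and TGATGTCA in the Tnp1 window, did not count. TGAGGTCA was present in 2.40% of all 27025 genes of the promoter table, in 2.14% of the 8173 detected genes with a promoter there, in 5.05% of 1464 genes lower in BA10 by 2-fold or more and in 1.41% of 1349 genes higher by 2-fold or more. AAGGTCA was present in 5.38%, 4.27%, 6.49% and 4.52% of the same sets in that order, TGACGTCA in 2.03%, 3.99%, 4.10% and 3.04%, and CCAAT in 41.1%, 43.7%, 44.7% and 42.8%. A match is only a run of letters, and these shares were not tested.

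Counts for gene lists include every member in the table, also those under the detection filter that follows. Across all genes, 10578 were detected in at least 5% of the deep cells of either library. BA10 was higher by 2-fold or more for 1695 of them (16.0%) and lower for 1951 (18.4%), and differences of 8-fold or more were 69 upward and 339 downward. The plot of pooled levels shows this one-sided spread among the abundant genes. A10 against A0, the other pair of libraries with many deep cells, passed 2-fold upward for 4 of 9245 genes (0.0433%) and downward for 7 (0.0757%). The median gene stood at a log2 ratio of 0.37 in BA10 over A0, where -0.02 was the median for A10 over A0. Scaling by a trimmed mean of ratios, which divides the BA10 levels by a log2 factor of 0.41, brought that median to -0.01 and changed the split to 627 genes higher and 2419 lower, so log2 ratios between 0 and 0.41 change sign with that scaling.

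**Figure D1:**
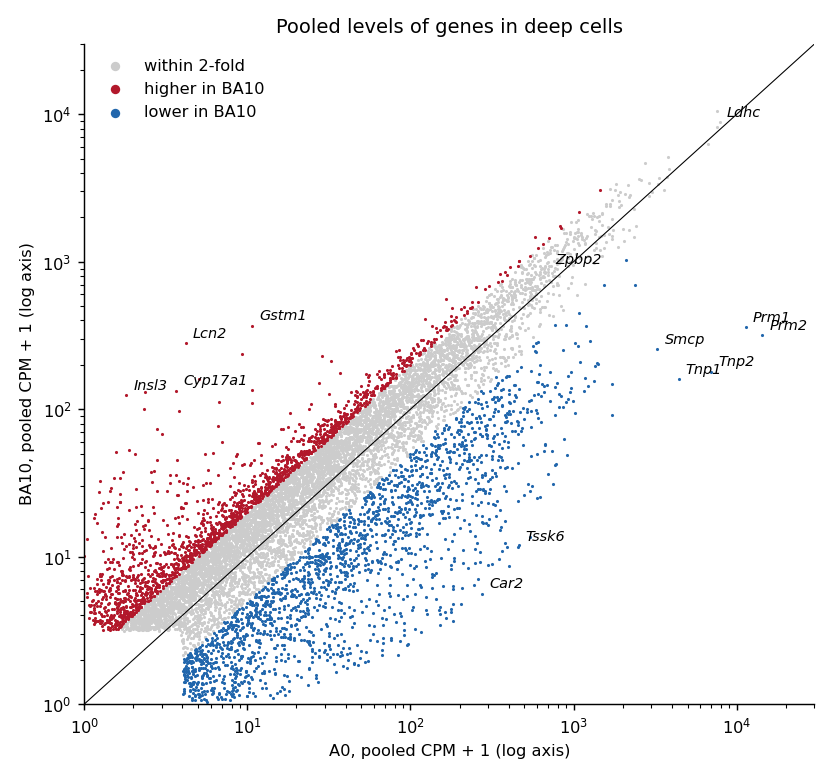
Pooled level of each detected gene in the deep cells of A0 (horizontal) and BA10 (vertical), in CPM plus 1 on log axes, with genes past 2-fold in colour. Prm1, Prm2, Tnp1 and Tnp2 lie far below the diagonal and Insl3, Lcn2, Cyp17a1 and Gstm1 far above it, while Ldhc and Zpbp2 lie close to it.

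The 8 largest falls included Prm2, Car2, which encodes carbonic anhydrase 2, and the ketone body enzymes Oxct2a and Oxct2b, near-identical copies whose reads may be split between them. Car2 was at 274 CPM in A0, 264 CPM in A10, 0.146 CPM in B0 and 4.60 CPM in BA10, 59.5-fold lower in BA10 than in A0 (54.1 to 65.7). The others were 1700016C15Rik, at 180 CPM in A0 and 2.68 CPM in BA10, 1700012A03Rik (403 and 7.70 CPM), 1700080E11Rik (151 and 2.46 CPM) and the cystatin-like gene Cstl1 (204 and 3.76 CPM). Among the A0 cells, all 8 stood higher in those led by condensing spermatid markers than in those led by round spermatid or meiotic markers, for example 589, 55.8 and 28.1 CPM for Cstl1. Prm2 and Car2 belong to the list that placed those cells, so for them this order follows from the choice of cells.

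Spermatid kinases and genes of the fibres and sheath of the sperm tail were mostly lower, whereas most axoneme genes were within 2-fold. The testis-specific serine kinases were lower by 2-fold or more in 6 of 6 cases, where 18.4% of all detected genes were, with a median log2 ratio of -2.54. Tssk6, a kinase needed for the compaction of sperm chromatin, was at 457 CPM in A0 and 10.7 CPM in BA10. Tssk2 was at 919 and 117 CPM. Among 14 genes of the outer dense fibres and fibrous sheath, 11 were lower, with a median of -2.75. Smcp, a protein of the mitochondrial capsule of the sperm midpiece, was at 3260 CPM in A0 and 254 CPM in BA10, and Oaz3, a germ cell antizyme, at 1731 and 147 CPM. Ropn1l, a ropporin-like protein of the fibrous sheath, was the opposite case with 3347 and 3717 CPM, and Odf2, an outer dense fibre protein, gave 2342 and 1462 CPM. The 20 axoneme genes, which build the motor of the tail, had a median of -0.16 with 1 lower by 2-fold, and of -0.57 with 6 lower with trimmed-mean scaling. Of 10578 detected genes 2419 were lower with that scaling. Meig1, which acts in spermiogenesis, was at 7563 and 8170 CPM, and Rsph1, a radial spoke protein, at 1825 and 3356 CPM.

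Acrosome genes fell into separate sets. Of the 21 round spermatid markers, 15 were lower in BA10 by 2-fold or more and none was higher, where 18.4% and 16.0% of all detected genes were, with a median log2 ratio of -1.88. The other 6 were Zpbp2, Acrbp, Zpbp, Acr, Spesp1 and Dpy19l2, with log2 ratios of 0.21 to 0.50 that lie between -0.21 and 0.09 with trimmed-mean scaling. Zpbp2, a protein of the acrosomal matrix, was at 698 CPM in A0 and 887 CPM in BA10, and Acrbp, which binds proacrosin, at 518 and 735 CPM. Acrv1, an acrosomal vesicle protein, was at 158 CPM in A0, 146 CPM in A10, 84.3 CPM in B0 and 34.8 CPM in BA10. Spaca1, needed to shape the acrosome, gave 399, 348, 209 and 112 CPM in the same order. The 6 that were not lower also stood at high levels in cells led by meiotic markers, such as 674 CPM for Acrbp in A0, whereas Acrv1 stood at 39.1 CPM there. Izumo1, the sperm protein that binds the egg, was 5.83-fold lower in BA10 (5.54 to 6.14).

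Where 18.4% of all detected genes were lower, the acrosome list of 15 genes, which overlaps the round spermatid list, held 9 lower genes and had a median of -1.83. The ADAM family of sperm surface proteins split in the same manner. Of its 18 members, 11 were lower, with a median of -1.67, while Adam2 was at 222.5 CPM in A0 and 306 CPM in BA10 and Adam32 at 404 and 444 CPM. Sperm ion channels were lower in 6 of 12 cases, beside the same 18.4% of all detected genes. Atp1a4, the sodium pump subunit of sperm, was at 161 and 12.2 CPM, and Catsper3, a subunit of the sperm calcium channel, at 105 and 24.1 CPM, but Catsper2 of the same channel was at 261 and 296 CPM.

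**Figure D2:**
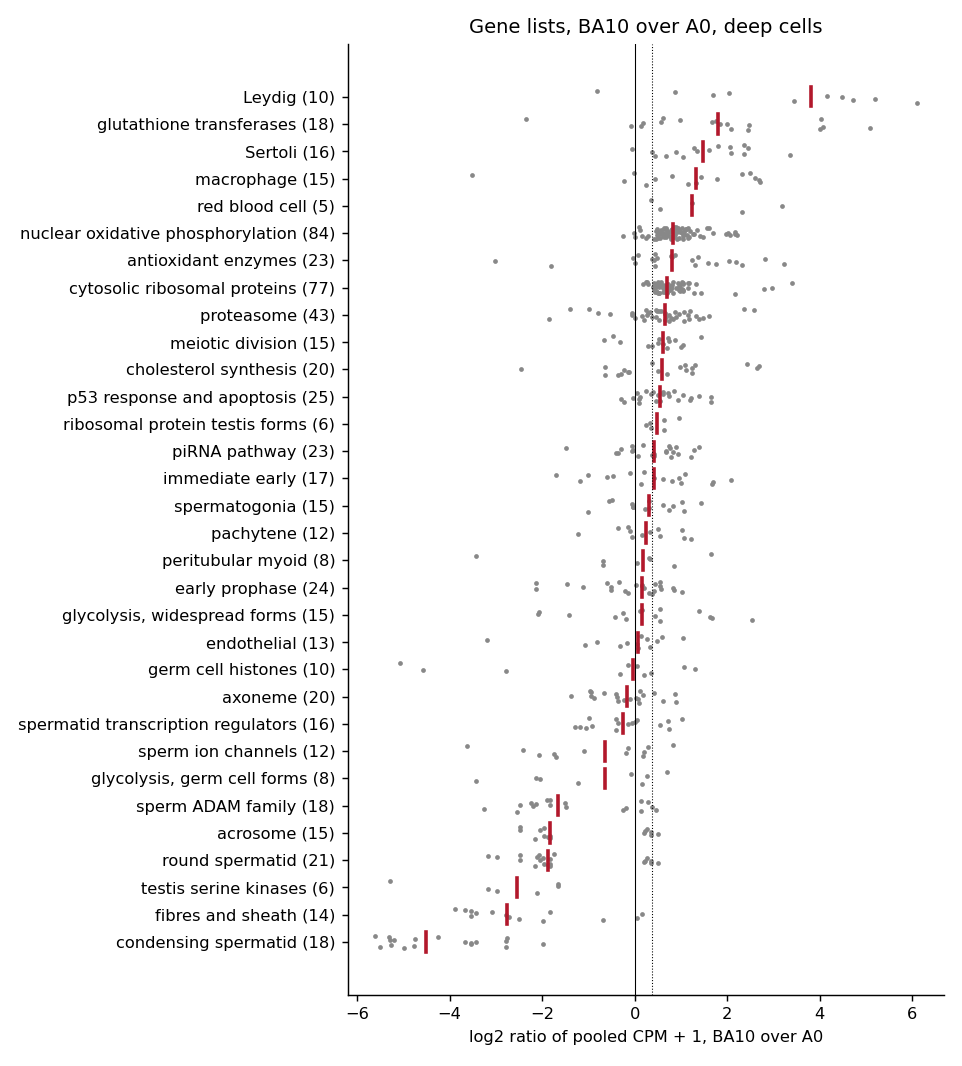
Log2 ratio of pooled CPM plus 1, BA10 over A0, for each member (grey points) of each gene list, with the list median in red, the number of members in brackets, a solid line at 0 and a dotted line at the median of all detected genes. The condensing spermatid list lies wholly below 0, the Leydig list mostly above it, and the ADAM and acrosome lists each hold a set near 0 and a set below.

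Markers of the meiotic stages were present at levels near or above those of A0. The 12 pachytene markers had a median log2 ratio of 0.25, which turns to -0.17 with trimmed-mean scaling, with 3 higher (0 with that scaling) and 1 lower by 2-fold, beside 16.0% and 18.4% of all detected genes. With that scaling 627 of 10578 detected genes were higher and 2419 lower. Ldhc was at 7882 CPM in A0 and 8851 CPM in BA10. Piwil1, which binds piRNAs in spermatocytes, was at 93.7 CPM in A0, 110 CPM in A10, 228 CPM in B0 and 221 CPM in BA10. Ybx2, an RNA-binding protein of germ cells, was at 839 and 1702 CPM in A0 and BA10. Pgk2, a germ cell glycolytic enzyme, was the 1 lower marker, with 577 and 248 CPM. For the 15 meiotic division markers the median was 0.61 (0.23 with trimmed-mean scaling), 3 were higher, close to the 16.0% of all detected genes, and none was lower (1 higher and 1 lower with that scaling). Aurka, a spindle kinase, was at 234 and 484 CPM, Cks2 at 135 and 367 CPM, and Ccnb2, a cyclin of the division, at 293 and 380 CPM.

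Of 24 early prophase markers, 1 was higher and 4 were lower, near the 18.4% of all detected genes that were lower, with a median of 0.17 that is -0.13 with trimmed-mean scaling. Sycp3, of the axes that hold paired chromosomes, was at 168 CPM in A0 and 304 CPM in BA10. The 4 lower ones, Syce2 (409 and 92.1 CPM), Tex15 (41.7 and 8.71 CPM), Msh4 (10.3 and 3.11 CPM, with a ratio of -0.63 at a pseudocount of 10 CPM) and Rec8 (31.1 and 13.9 CPM, with a log2 ratio of only -0.58 in cells of up to 20000 UMIs), each had a higher level in A0 cells led by round spermatid markers than in A0 cells led by meiotic markers. The spermatogonia list of 15 genes had a median of 0.31. Its most abundant member Dmrtb1, a regulator of the entry into meiosis, was at 927 and 1151 CPM and made up most of the list sums of 985 and 1258 CPM. Id4, a marker of stem spermatogonia, was at 35.3 and 74.6 CPM, with a log2 ratio of 0.65 with trimmed-mean scaling. Only 6 of these 15 genes passed the detection filter, and Gfra1, a stem cell receptor, was at 2.61 and 0.800 CPM.

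The largest excess in BA10 was that of a Leydig cell gene. Insl3, a peptide hormone of Leydig cells, was at 0.802 CPM in A0, 1.25 CPM in A10, 355 CPM in B0 and 124 CPM in BA10, so that BA10 was 155-fold above A0 (129 to 188) and B0 higher still. Cyp17a1, an enzyme of androgen synthesis, followed the same order with 2.64, 3.18, 242 and 133 CPM, 50.2-fold (45.3 to 55.8) between BA10 and A0. Cyp11a1, which makes the first cut in cholesterol, gave 1.78, 2.10, 148 and 72.0 CPM, and Star, which carries cholesterol into mitochondria, gave 0.894, 0.899, 51.2 and 19.7 CPM. Of the 10 Leydig list genes, 8 were higher by 2-fold or more, 7 of them past the detection filter, where 16.0% of all detected genes were higher. The median log2 ratio of the list was 3.81, which became 2.42 without the cells led by a somatic list. The other 2 were Fdx1 (154 and 284 CPM in A0 and BA10), an electron carrier that stood at 233 CPM in the A0 cells led by meiotic markers, and Scarb1 (21.8 and 11.9 CPM), a lipoprotein receptor. The other largest excesses were those of Lcn2, a lipocalin (3.20 and 278 CPM), Apoc1, an apolipoprotein (1.34 and 130 CPM), Akr1cl (1.32 and 99.8 CPM), Gstm1, a glutathione transferase (9.73 and 367 CPM), Tmem176a (0.570 and 50.3 CPM) and Ptgds, a prostaglandin synthase (4.08 and 159 CPM).

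These Leydig transcripts were concentrated in few cells. A cell was placed by the marker list that led in it, meaning the list with the highest level relative to its library means, and 138 of 3778 BA10 cells (3.65%, 3.08 to 4.30) were led by the Leydig list, against 4 of 7901 in A0. The 138 cells held 66.2% of the Insl3 UMIs of BA10 (65.3 to 67.1), 72.3% of those of Cyp17a1 and 75.9% of those of Lcn2. Insl3 and Cyp17a1 belong to the list that placed these cells, so their shares follow in part from the choice of cells, whereas Lcn2 is not on it. Outside them, after thinning, Insl3 had a UMI in 912 of 2878 (31.7%) of the BA10 cells led by meiotic markers, which should lack it, against 99.3% of the Leydig-led cells and 0.426% of the A0 cells led by meiotic markers. Their median depths before thinning were 20911, 12118 and 13045 UMIs. Its source in those cells was not tested, and the share is not read as expression by germ cells. Of the Leydig list as a whole, which includes Fdx1, 18 of 3778 BA10 cells and 1296 of 7901 A0 cells (16.4%) had no UMI, in libraries of different depth.

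Sertoli genes, part of the macrophage list and some globin genes were higher too, where 16.0% of all detected genes were higher and 18.4% lower. In the Sertoli list 11 of 16 genes were higher by 2-fold or more, all of them past the detection filter, with a median of 1.48. Its summed level was 119 CPM in A0 and 624 CPM in BA10, 5.25-fold higher (5.16 to 5.34). Clu, a secreted chaperone, was at 9.75 CPM in A0, 317 CPM in B0 and 109 CPM in BA10, and Defb19, a beta-defensin, at 26.4, 765 and 149 CPM. The 329 BA10 cells led by the Sertoli list held 25.4% of the Clu UMIs of BA10 and 21.97% of those of Defb19. Both genes belong to the list that placed these cells. In cells led by meiotic markers 11 of the 16 list genes were higher by 2-fold or more, with a median of 1.83. The list sums there were 54.3 CPM in A0 and 421 CPM in BA10. The source of Sertoli transcripts in those cells was not tested. The nuclear Sertoli markers Wt1 (0.781 and 2.71 CPM) and Sox9 (0.669 and 1.66 CPM) were scarce in A0 and BA10. Of 15 macrophage markers, 9 were higher. The detection filter passed 9 of the 15, of which 6 were higher. The sum of the list was 4.96-fold lower in BA10, with 693 CPM in A0 and 140 CPM in BA10. The higher ones included C1qa, a complement subunit, at 1.03 and 12.3 CPM, and Cd74, the invariant chain of antigen presentation, at 1.48 and 14.1 CPM. Aif1, which made up most of the A0 sum, was lower, with 672 and 57.5 CPM, and stood at 1356 CPM in the A0 cells led by condensing spermatid markers. The alpha globin gene Hba-a1 was at 10.7 CPM in A0, 209 CPM in B0 and 57.7 CPM in BA10. Its log2 ratio of 2.33 became 5.06 in cells of 15000 UMIs or more. Of the 5 red blood cell genes 3 were higher, and 2 passed the detection filter. Endothelial and peritubular myoid lists had medians of 0.07 and 0.18, with 3 of 13 and 3 of 8 genes past the detection filter, while their sums were 2.33-fold and 7.18-fold lower in BA10. Flt1, of the endothelial list, was at 13.8 and 0.613 CPM and Actg2, a smooth muscle actin of the myoid list, at 308 and 27.6 CPM, and both stood higher in A0 cells led by round or condensing spermatid markers than in those led by meiotic markers.

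**Figure D3:**
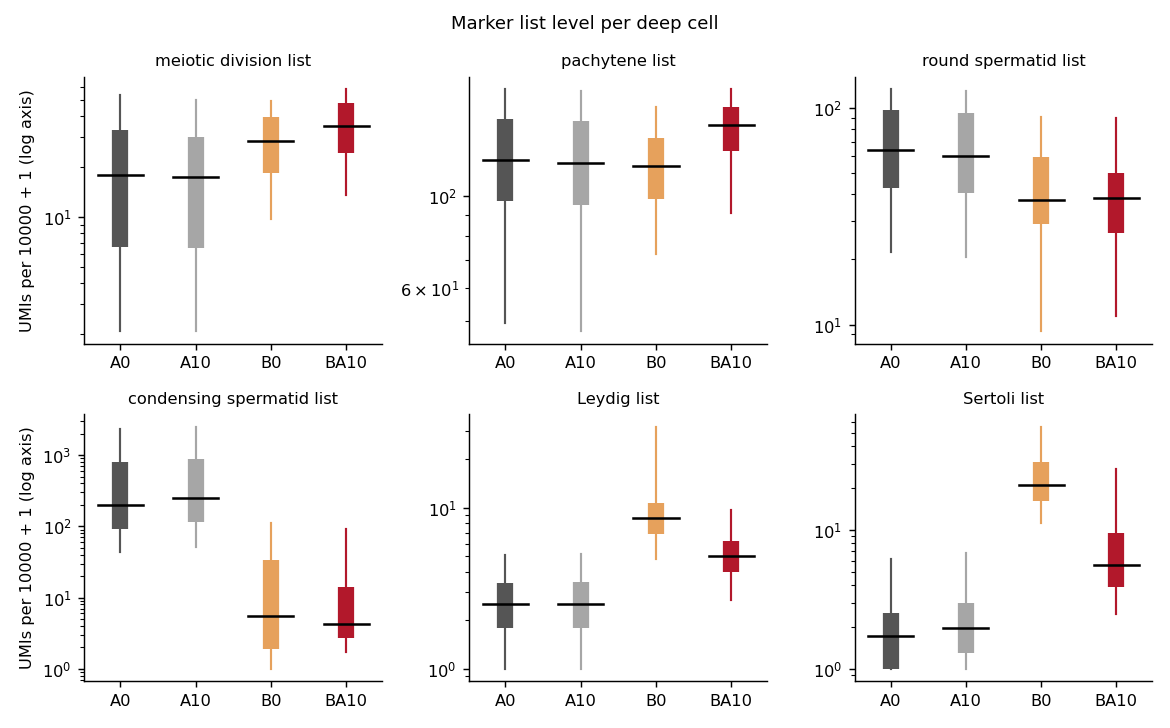
Level of 6 marker lists per deep cell in each library, in UMIs per 10000 plus 1 on a log axis: thin lines run from the 5th to the 95th percentile of cells, boxes from the lower to the upper quartile, and black bars mark the median cell. The condensing spermatid list is high in A0 and A10 and low in B0 and BA10, and the Leydig and Sertoli lists are lowest in A0 and A10 and highest in B0.

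Placed by leading list, BA10 was mostly a library of meiotic cells. The meiotic range, led by the spermatogonia, early prophase, pachytene or meiotic division list, held 2878 BA10 cells (76.2%, 74.8 to 77.5) and 2820 A0 cells (35.7%, 34.6 to 36.8). The round spermatid range held 368 BA10 cells (9.74%, 8.81 to 10.7) and 2571 A0 cells (32.5%, 31.5 to 33.6). The condensing spermatid range held 23 BA10 cells (0.609%, 0.386 to 0.912) and 2466 A0 cells (31.2%, 30.2 to 32.2). The somatic range held 509 BA10 cells (13.5%, 12.4 to 14.6), of which 329 were led by the Sertoli list, and 44 A0 cells (0.557%, 0.405 to 0.747). A10 held 34.6% meiotic and 34.0% condensing cells. The intervals count cells of 1 library each and do not cover differences between animals or libraries. In B0, 75.2% of 448 deep cells were led by a somatic list. These ranges come from a score and are not cell types: in 1146 A0 cells and 469 BA10 cells the list of another range came within a factor of 1.25 of the leading one, and the Sertoli-led BA10 cells still held a median of 129 pachytene list UMIs per 10000, against 153 in cells led by the spermatogonia list and 166 in those led by the pachytene list. The Leydig-led BA10 cells held a median of 23.8 Sertoli list UMIs per 10000, close to the 23.6 of the Sertoli-led BA10 cells. They also held a median of 65.1 pachytene list UMIs per 10000. Cells with the RNA of 2 cell types were not removed. In shares of cells a loss of 1 stage raises all others, and fewer cells of a type and fewer captured or deep cells of it cannot be told apart.

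**Figure D4:**
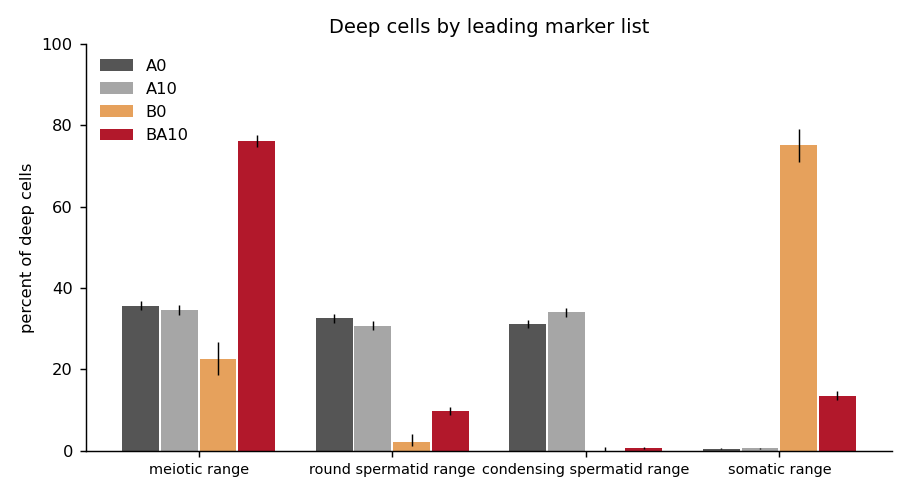
Percent of the deep cells of each library in 4 ranges set by the leading marker list, with 95% exact binomial intervals as error bars. BA10 has the highest share in the meiotic range and is close to 0 in the condensing spermatid range, where A0 has 31.2% and A10 34.0% of its cells.

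Most Prm1, Prm2 and Tnp2 UMIs of BA10 lay in the few cells of its condensing range, which were placed there by a list that holds these genes. The 23 cells held 83.8% of the Prm2 UMIs of the library (83.4 to 84.2), 83.7% of those of Prm1, 75.4% of those of Tnp2 and 54.5% of those of Tnp1, in 0.609% of the cells. The 2466 condensing cells of A0 held 84.1% of the Prm2 UMIs of A0. Within the range, Prm2 was at 53500 CPM in BA10 and 40656 CPM in A0, and Prm1 at 60693 and 32576 CPM. The list that placed the cells holds these genes, so high levels within the range follow from the choice of cells. Smcp was at 7284 and 7431 CPM there and Car2 at 775 and 742 CPM. By contrast only 14.2% of the Smcp UMIs and 12.6% of the Prm3 UMIs of BA10 were in these cells. None of the 23 shared a barcode with a deep cell of another library. Counting cells by level alone, 48 of 3778 BA10 cells (1.27%, 0.938 to 1.68) exceeded the median A0 cell in the condensing list, and 191 (5.06%) exceeded the lower quartile of A0 cells.

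Spermatid transcripts were found in all cells of A0. No A0 cell lacked UMIs of the condensing list, and 5% or fewer had under 42.5 per 10000. After thinning, Prm2 had a UMI in 44 of 44 A0 cells of the somatic range and in 2820 of 2820 of the meiotic range. In the meiotic range of BA10 the share was 25.3% of 2878 cells (23.7 to 26.9). The ranges come from a score, and whether some of these cells made protamines was not tested. In A0 the ratio of Prm2 to Prm1 UMIs was 1.25 in the condensing range, 1.37 in the round range and 1.33 in the meiotic range. The ratio of Smcp to Prm1 was 0.228, 0.875 and 0.278. The ratio of Tnp2 to Prm1 was 0.606, 0.690 and 0.620. The meiotic range was thus nearer to the condensing range in the ratios of Smcp and of Tnp2 to Prm1, and nearer to the round range in that of Prm2 to Prm1. In BA10 the ratio of Cyp17a1 to Insl3 was 1.17 in the Leydig-led cells, 0.858 in the meiotic range and 0.908 in the round range, and that of Defb19 to Insl3 was 0.213, 2.51 and 2.59. Differences within a range thus stand beside spermatid transcripts in A0, and Leydig and Sertoli transcripts in BA10, in cells led by other lists. Whether these were free RNA, and their part in single genes, was not tested.

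Within the meiotic range the libraries were much closer. Of 9958 detected genes, 433 were higher in BA10 by 2-fold or more (4.35%) and 921 were lower (9.25%), and the median log2 ratio was -0.00238. Of the genes called over all deep cells, 414 were also higher and 769 also lower here. Condensing spermatid and Leydig genes were among them: 18 of 18 condensing spermatid genes were lower, with a median of -4.07, and 7 of 10 Leydig genes were higher, with a median of 2.34. Ldhc was at 9467 CPM in A0 and 9212 CPM in BA10, Aurka at 493 and 539 CPM, Sycp3 at 346 and 332 CPM, Zpbp2 at 1062 and 926 CPM and Piwil1 at 207 and 244 CPM. The medians of the pachytene, meiotic division and early prophase lists were -0.12, -0.04 and -0.04. These lists placed the cells, and Ldhc, Aurka, Sycp3 and Piwil1 belong to them. Near-equal levels of these lists and genes thus follow in part from the choice of cells. In cells led by the pachytene list the 6 largest falls were those of Dapp1, Prm2, Tnp2, Prm1, Tppp2 and Tnp1, and the 6 largest excesses those of Gstm1, Lcn2, Insl3, Apoc1, Akr1cl and Ptgds, all but Dapp1 and Tppp2 named above. Tppp2, a tubulin-associated protein, was at 463 and 10.9 CPM over all deep cells.

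Dapp1, an adaptor protein of immune signalling, did not follow the spermatid genes. Over all deep cells it was at 34.1 CPM in A0, 13.4 CPM in A10, 17.9 CPM in B0 and 0.646 CPM in BA10, 52.8-fold lower in BA10 than in A0 (40.9 to 69.5). In A0 it was higher in the meiotic range (55.2 CPM) than in the condensing range (12.3 CPM), and in the meiotic range of BA10 it was at 0.437 CPM. A UMI was found after thinning in 906 of 2820 A0 cells of that range (32.1%, 30.4 to 33.9) and in 13 of 2878 BA10 cells (0.452%). The beta globin genes also differed in pattern, as Hbb-bs had 22 UMIs in A0 and 873 in BA10 but stood at only 1.17 CPM in B0, where Hba-a1 was at 209 CPM. Without the somatic-led cells the log2 ratio of Hbb-bs went from 3.19 to 1.22, and with a pseudocount of 10 CPM it was 0.95. Hbb-bt had 0 UMIs in A0 and 124 in BA10, and without the somatic-led cells, 8 of which were led by the red blood cell list, its log2 ratio went from 1.24 to 0.21. The globin genes are near-identical copies within each family, so reads may be split between them.

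Gene length moved with the ratio inside the meiotic range. Over 6741 genes with a level of 10 CPM or more in either library and a known length, set into 6 bins of equal gene number by total exon length, the median log2 ratio went from 0.13 in the shortest bin (0.204 to 1.82 kb) through 0.11, 0.04, -0.02 and -0.13 to -0.34 in the longest (7.51 to 41.3 kb). By genomic span the medians went from 0.19 to -0.36. For A10 over A0 in the same bins they went from 0.01 to -0.04. By count, 154 of the 1124 genes of the longest exon bin were lower by 2-fold or more and 1 was higher. In the shortest, 177 of 1125 were lower and 67 higher. The bins between, from short to long, held 104, 60, 57 and 82 lower genes. Over all detected genes of the meiotic range 9.25% were lower and 4.35% higher. Examples among long genes were Fsip2, of the fibrous sheath, with 276 and 76.9 CPM in the meiotic range of A0 and BA10, the cytoskeletal linker Dst with 82.2 and 28.8 CPM, the dynein Dnah8 with 1351 and 579 CPM, the chromosome axis protein Sycp2 with 212 and 84.1 CPM, and the centromere motor Cenpe with 180 and 77.0 CPM. Each of these was lower by 2-fold or more, whereas the quartiles of the longest exon bin were -0.72 and -0.02. Sycp2 and Cenpe belong to lists that placed the cells. A0 and BA10 cells of the range differed in median depth, with 13045 and 20911 UMIs. Restricted to cells of up to 20000 UMIs, with medians of 10921 and 11960, the exon bins went from 0.15 to -0.29. Restricted to genes no higher in the A0 condensing range than in its meiotic range, they went from 0.23 to -0.27. RNA quality was not measured in these files. Its part in the trend, and the parts of depth and of spermatid RNA, were not tested.

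**Figure D5:**
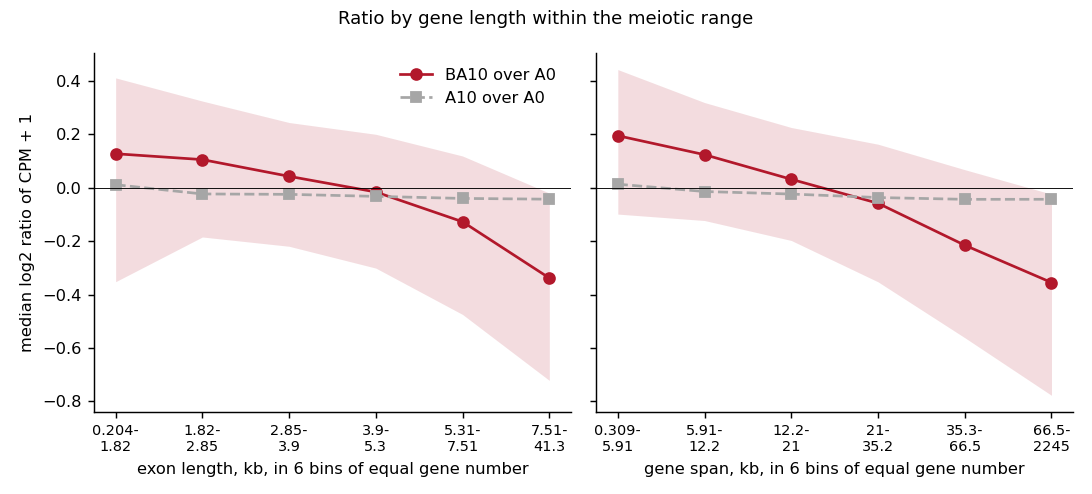
Median log2 ratio of pooled CPM plus 1 within the meiotic range, for genes in 6 bins of equal number by exon length (left) and genomic span (right), with the interquartile range of BA10 over A0 shaded. The BA10 over A0 medians go from above 0 for short genes to below 0 for long genes, and those of A10 over A0 stay near 0.

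The round spermatid range was compared in the same manner. Its cells were placed there by the round spermatid list, which overlaps the acrosome list, so the levels of these markers within it are a description of the cells chosen. There 665 of 9583 genes were higher in BA10 (6.94%) and 562 were lower (5.86%), with a median log2 ratio of 0.14. None of the 21 round spermatid markers passed 2-fold in either direction, and their median was -0.20. Spaca1 was at 849 CPM in A0 and 613 CPM in BA10, Spaca3 at 815 and 709 CPM, Acrv1 at 318 and 221 CPM and Tssk1 at 1027 and 845 CPM. After thinning, Spaca1 had a UMI in 99.9% of 2571 A0 cells and 99.2% of 368 BA10 cells of the range. The later genes divided. Prm3, which lies among the protamine genes, was at 977 and 1067 CPM, Odf1 at 144 and 145 CPM and Hils1, a linker histone of spermatids, at 1836 and 1498 CPM, whereas Prm2 was at 4301 and 151 CPM, Tnp2 at 2162 and 187 CPM and Car2 at 94.0 and 1.65 CPM. Tnp1 lay between them with 1889 and 555 CPM. Of the 18 condensing list genes 9 were lower by 2-fold or more in this range. In 125 of the 368 BA10 cells and 562 of the 2571 A0 cells the list of another range came within a factor of 1.25, and the Prm2 of A0 stood at 2377 CPM in its meiotic range.

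Chromosomes differed over all deep cells. The 9905 detected autosomal genes had a median log2 ratio of 0.39, with 17.4% lower by 2-fold or more, and the 281 X-linked genes had a median of -0.73, with 40.9% lower. The X-linked genes summed to 8845 CPM for A0, 8535 CPM for A10, 7758 CPM for B0 and only 3412 CPM for BA10. X-linked genes are silenced in pachytene spermatocytes and partly expressed again in spermatids. Within the meiotic range the sums were 2209 and 1968 CPM in A0 and BA10, and the X-linked median was -0.09. The 10 detected Y-linked genes had a median of -0.77.

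Ribosomal and respiratory genes had medians above that of all detected genes, but their counts past 2-fold depended on the scaling. All 77 cytosolic ribosomal protein genes had log2 ratios above 0, from 0.19 to 3.41, with a median of 0.71 and 17 past 2-fold (where 16.0% of all detected genes were higher), against 5 with trimmed-mean scaling. With that scaling 627 of 10578 detected genes were higher and 2419 lower. Rplp0 was at 1712 CPM in A0 and 2625 CPM in BA10, and Rpl41 at 1797 and 3083 CPM. The 4 X-linked ones had a median of 2.88, against 0.71 for the other 73. Rps4x, for example, was at 2.35 CPM in A0, 84.7 CPM in B0 and 34.7 CPM in BA10, and Rpl39 at 3.05, 112 and 30.6 CPM. The 84 nuclear genes of oxidative phosphorylation had a median of 0.84 with 28 higher and none lower (11 higher with trimmed-mean scaling). Cox8c, a subunit of cytochrome oxidase, was at 1456 and 3048 CPM. The 43 proteasome genes had a median of 0.66, 11 were higher, and Psma6 (1023 and 281 CPM) and Psme3 (99.3 and 36.9 CPM) were lower. Over all detected genes 16.0% were higher and 18.4% lower. With trimmed-mean scaling 5 proteasome genes were higher and 4 lower.

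Enzymes against oxidants and electrophiles differed in both directions. Of 18 glutathione transferases 11 were higher, with a median of 1.80. The detection filter passed 13 of the 18, of which 9 were higher, and 16.0% of all detected genes were higher. Gstm1, Gstm2 (5.69 and 111 CPM), Mgst1 (1.77 and 44.6 CPM) and Gsta3 (0.647 and 25.7 CPM) were the furthest apart, while Gstm5, the abundant form of germ cells, was at 3860 and 4242 CPM. Leydig-led cells held 60.3% of the Gstm1 UMIs of BA10. Mgst2 was lower, with 9.32 and 1.02 CPM, but within 2-fold (-0.81) with a pseudocount of 10 CPM. Of 23 antioxidant enzymes 10 were higher and 2 lower, where 16.0% and 18.4% of all detected genes were, with a median of 0.81. Among the higher ones were Gpx1, a glutathione peroxidase, at 2.38 and 30.5 CPM and Prdx1, a peroxiredoxin, at 54.1 and 164 CPM. Sod1, the cytosolic superoxide dismutase, was at 436 and 124 CPM and Prdx4, of the secretory pathway, at 257 and 30.7 CPM, both with their highest A0 level in the condensing range. Gpx4, which sperm use as a structural protein, was at 3316 and 3347 CPM.

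Damage, stress and metabolic lists are given beside all detected genes, of which 16.0% were higher and 18.4% lower. With trimmed-mean scaling 627 of 10578 detected genes were higher and 2419 lower. Of 25 genes of the p53 response and apoptosis, 6 were higher and none was lower, with a median of 0.55 where all detected genes had 0.37, and 3 were higher with trimmed-mean scaling. The detection filter passed 14 of the 25, of which 4 were higher. Bax, which opens the mitochondrial membrane, was at 3.89 CPM in A0 and 14.4 CPM in BA10, with 5.16 and 11.3 CPM in the meiotic range, and Mdm2, which degrades p53, at 156 and 133 CPM. Of 17 immediate early genes 5 were higher (3 with trimmed-mean scaling) and 3 lower, near the 18.4% of all detected genes, the latter being Klf4 (77.0 and 37.6 CPM), Jund (41.3 and 17.6 CPM) and Nr4a1 (13.5 and 3.43 CPM). With cells of up to 20000 UMIs the log2 ratios of Klf4 and Jund were -0.30 and -0.51, within 2-fold. With a pseudocount of 10 CPM the ratios of Bax (0.82) and Nr4a1 (-0.80) were within 2-fold as well. Of 20 genes of cholesterol synthesis and uptake 8 were higher, with a median of 0.60, and Cyp51 was lower with 73.7 and 12.7 CPM, but 4 were higher and 2 lower with trimmed-mean scaling. Of 23 piRNA pathway genes, which silence transposons, 3 were higher and 1 lower, with a median of 0.42, close to the 0.37 of all detected genes, of which 16.0% were higher. With trimmed-mean scaling the median was 0.07 and 0 were higher. The lower gene was Rnf17, with 133 and 46.9 CPM, and Mael was at 1285 and 1724 CPM. The germ cell histones had log2 ratios from -5.07 to 1.31. Among them Hils1 was at 1406 and 202 CPM. H2afz, which is used in dividing cells, was at 829 and 1735 CPM, with a log2 ratio of 0.65 with trimmed-mean scaling. Of 8 germ cell forms of glycolytic enzymes 4 were lower, with a list median of -0.65, led by Gapdhs (1017 and 93.0 CPM), which is bound to the fibrous sheath. Of 16 transcription regulators of spermatids 3 were lower, close to the 18.4% of all detected genes, and 1 was higher, against 5 and 0 with trimmed-mean scaling. Crem, the activator of many spermatid genes, was at 467 and 354 CPM, and Tcfl5 at 154 and 315 CPM.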

How the data were processed

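The authors processed the 10x Genomics v2 reads with Cell Ranger 2.2.0 against mm10, forcing the number of cells, removed cells with few genes and genes seen in few cells, and deposited 1 table of 4 libraries holding natural log values, ln(1 + 10000 × share of the cell's UMIs). UMIs were recovered by dividing each cell's unlogged values by its smallest value above 0, and 100% came out whole within 0.001. BA10 and A0 cells of at least 9013 UMIs were pooled per library and scaled to CPM, genes found in 5% or more of the cells of A0 or BA10 were compared as log2 ratios of CPM + 1, and 2-fold was the threshold. Intervals are exact (Poisson, or Clopper-Pearson binomial; SciPy 1.17.1). For leading lists, a list's UMIs per 10000 were divided by the mean of its library means, or by 10 if that was lower. Genes named are the 8 largest in each direction, up to 4 abundant members of each list with those past 2-fold against its median, and 6 in each direction in pachytene-led cells; others were chosen after their values were seen. The members, lists and score were chosen with earlier results of these data known. Annotation was GENCODE M21 (17549 of 18419 symbols matched). Calculations were tested on simulated data. List counts and medians cover all members in the table.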

Additional observations from a re-analysis of the deposited data

How the results depend on the processing

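No paired analysis was possible because each group has 1 library, and for the same reason no library could be left out. Ratios and lists were recomputed in 9 other settings, and counts and shares where each setting applies. Of 83 genes printed here that were past 2-fold, 64 stayed past it in the same direction in all 9 settings, and 0 changed sign; a pseudocount of 10 CPM ended 14 calls, trimmed-mean scaling 8. Medians are log2 ratios, listed as pachytene, round spermatid, condensing spermatid and Leydig unless stated. With trimmed-mean scaling they were -0.17, -2.29, -4.80 and 3.41, and 627 genes were higher. With cells of up to 20000 UMIs they were 0.37, -1.25, -4.32 and 4.82. As means over cells they were 0.26, -1.56, -4.36 and 4.40, and with thinned cells 0.26, -1.56, -4.35 and 4.43. With all A0 cells the first 3 were 0.26, -1.84 and -4.57. At 15000 UMIs or more the pachytene, round and Leydig medians were 0.24, -2.16 and 3.23, and without somatic-led cells 0.27, -1.94 and 2.42. Without the 5% deepest cells the first 2 were 0.27 and -1.83, and the A0 meiotic share was 34.5%. With a pseudocount of 10 CPM the last 3 were -1.75, -3.85 and 1.55, with 405 genes higher and 1192 lower. A filter of 10 CPM left 1102 higher. At 15000 UMIs or more the meiotic, round and somatic shares were 37.6%, 28.7% and 0.148% in A0 and 83.8%, 7.50% and 8.01% in BA10, and the A0 condensing share was 33.6%. Scoring by the mean over markers gave round shares of 36.2% in A0 and 11.8% in BA10, a condensing share of 27.8% in A0 and a somatic share of 12.0% in BA10. Of 28 other lists, 4 changed the sign of their median in a setting: germ cell histones, axoneme, early prophase and widespread glycolysis. The length bins with cells of up to 20000 UMIs, and with genes no higher in condensing cells, were chosen after seeing the data. The causes of these shifts were not tested.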
